A study of Mus musculus with 11 samples.

Results

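Rnf genes encode RING finger proteins, and 10 of the 1767 genes in the table of striatal cells carry a symbol that begins with Rnf. They are Rnf125, Rnf141, Rnf144a, Rnf13, Rnf103, Rnf139, Rnf20, Rnf167, Rnf187 and Rnf34. Every gene of the table had been kept for a p-value under 0.05 in the comparison of knockdown with control cells, so that comparison chose these 10 genes, and their differences are given here as a description without a test. Rnf genes that did not enter the table were not analysed here.

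RNA was sequenced from the striatum, the input nucleus of the basal ganglia, of male wild-type B6 mice (C57BL/6 background). The mice received adeno-associated virus (AAV1/2) in both striata at 6 weeks of age, and the tissue was taken 3 weeks later. In 6 NT2 control samples (NT2) the vector expressed EmGFP with the non-targeting miRNA NT2, and in 5 NF-YA/YC knockdown samples (YAYC) it expressed EmGFP with miRNAs against NF-YA and NF-YC, which are subunits of the transcription factor NF-Y. Both vectors used the CAG promoter, which is not restricted to neurons, and EmGFP-positive cells that excluded propidium iodide were sorted, so no group represents uninjected tissue. Sample numbers run from 3 to 10 (4 control and 4 knockdown samples) and from 21 to 23 (2 control and 1 knockdown sample), and the labels call neither series a batch. Nothing in the labels ties samples to separate animals, and the spread given here is that between samples.

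A RING finger is a zinc-binding fold with which most of these proteins act as E3 ubiquitin ligases. An E3 ligase brings a ubiquitin-conjugating enzyme to a chosen protein, and the ubiquitin chain that is built marks that protein for the proteasome, for sorting through endosomes or for a change in activity. In the brain such ligases act in protein quality control, membrane traffic, transcription and innate immune signalling, and the 10 genes cover these roles. NF-Y binds the sequence CCAAT in promoters, commonly within a short distance of the transcription start.

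Promoter sequence was therefore read for the letters CCAAT on either strand in the 250 bases before each start, using RefSeq promoters of GRCm38.p6. Of the 10 genes, 8 had a promoter in that set, and 4 of these 8 (50.0%) held CCAAT, namely Rnf13, Rnf103, Rnf167 and Rnf34. The letters occurred in 33.8% of all 32851 promoters of the set and in 35.4% of the 1594 promoters found for genes of the table. Rnf141, Rnf144a, Rnf20 and Rnf187 had no CCAAT in this window, and Rnf125 and Rnf139 had no entry. The Rnf20 window had the lowest GC share (40.0%, next to 51.6% for Rnf141) and ended in a pyrimidine-rich stretch and AG, like the end of an intron. It may therefore not lie before the first exon of Rnf20, and its lack of CCAAT is uncertain. These matches describe letters and not binding. The promoters of the only gene above the control level and of both genes that carry CCAAT on the strand of the gene are shown first, and those of the 2 genes below the control level with the largest changes among promoters found follow as sequences without a match. Capitals mark CCAAT, which reads ATTGG where it lies on the opposite strand.
Rnf34, GRCm38.p6, chr5:122849938-122850187, plus strand: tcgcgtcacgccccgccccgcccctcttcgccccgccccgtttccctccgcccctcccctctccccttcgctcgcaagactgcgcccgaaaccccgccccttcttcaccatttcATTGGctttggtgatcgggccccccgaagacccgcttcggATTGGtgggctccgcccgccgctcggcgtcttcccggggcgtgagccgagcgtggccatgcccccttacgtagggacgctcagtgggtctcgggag
Rnf13, GRCm38.p6, chr3:57735807-57736056, plus strand: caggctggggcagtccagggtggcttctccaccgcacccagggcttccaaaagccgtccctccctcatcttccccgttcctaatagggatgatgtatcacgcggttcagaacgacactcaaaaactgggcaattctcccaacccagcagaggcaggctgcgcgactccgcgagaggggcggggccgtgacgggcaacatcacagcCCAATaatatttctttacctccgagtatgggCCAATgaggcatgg
Rnf103, GRCm38.p6, chr6:71493627-71493876, plus strand: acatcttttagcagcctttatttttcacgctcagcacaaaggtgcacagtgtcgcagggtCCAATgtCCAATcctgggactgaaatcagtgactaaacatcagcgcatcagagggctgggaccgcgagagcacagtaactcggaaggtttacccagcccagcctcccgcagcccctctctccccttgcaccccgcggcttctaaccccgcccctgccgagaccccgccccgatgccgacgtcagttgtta
Rnf141, GRCm38.p6, chr7:110844382-110844631, minus strand: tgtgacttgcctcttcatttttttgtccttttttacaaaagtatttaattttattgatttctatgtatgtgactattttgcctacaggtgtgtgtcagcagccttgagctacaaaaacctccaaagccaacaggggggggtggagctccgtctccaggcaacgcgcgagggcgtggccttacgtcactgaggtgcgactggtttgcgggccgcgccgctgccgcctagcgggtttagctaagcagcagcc
Rnf144a, GRCm38.p6, chr12:26415263-26415512, minus strand: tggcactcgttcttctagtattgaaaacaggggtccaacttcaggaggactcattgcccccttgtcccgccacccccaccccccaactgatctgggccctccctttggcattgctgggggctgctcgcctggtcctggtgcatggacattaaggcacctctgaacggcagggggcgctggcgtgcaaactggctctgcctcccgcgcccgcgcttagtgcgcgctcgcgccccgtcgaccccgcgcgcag

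In Rnf13 the CCAAT matches lay 45 to 41 and 14 to 10 bases before the start. In Rnf103 they lay farther away, at 190 to 186 and 183 to 179 bases, separated by a dinucleotide. In Rnf34 both lay on the opposite strand, at 136 to 132 and 96 to 92 bases before the start, and the single match of Rnf167 was also on the opposite strand, at 118 to 114 bases. Promoters with and without CCAAT were found among genes below the control level, and the promoter of Rnf34, the gene above it, had 2 matches.

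Normalized counts are the deposited estimated counts scaled between samples by TMM (trimmed mean of M values). Per kilobase of exon the 10 genes spanned a 38.9-fold range in the NT2 control. Rnf187, known as a coactivator of AP-1, was highest at 2123 normalized counts per kilobase, followed by Rnf13 at 1422 and Rnf167 at 463. Rnf139 (271), Rnf103 (237), Rnf34 (227) and Rnf20 (202) lay close together on this scale, and the SD ranges of neighbours in that order overlapped. Rnf144a at 118, Rnf125 at 108 and Rnf141 at 54.6 were lowest, and the ranges of Rnf144a and Rnf125 also overlapped. The length was the union of exons over all isoforms, which can exceed that of the transcripts present, and the order depends on it. In normalized counts without length the highest control mean was that of Rnf13 (14246, with 4138 for Rnf187). The lowest was that of Rnf125 (181, with 561 for Rnf141). In the knockdown samples Rnf34 moved up past Rnf139, with 299.7 and 239.6 on this scale. The coefficient of variation within a group ran from 4.30% to 29% over the 10 genes, the highest value being that of Rnf125 in the knockdown samples.

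**Figure D1:**
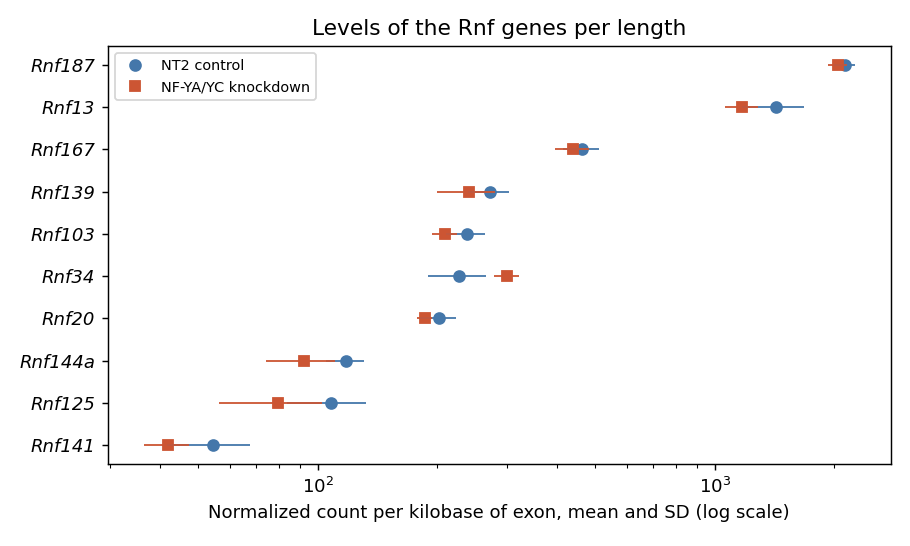
Mean normalized count per kilobase of exon (x axis, log scale) for each Rnf gene (y axis), with SD, in 6 NT2 control samples (blue circles) and 5 NF-YA/YC knockdown samples (red squares). Rnf187 and Rnf13 stand far to the right, Rnf141 is lowest, and Rnf34 has its knockdown mean to the right of its control mean.

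The knockdown means of 9 genes were below the control mean and that of Rnf34 was above it. The log2 fold changes ran from -0.44 for Rnf125 to 0.40 for Rnf34, and their median was -0.18, beside a median of -0.13 over all 1767 genes, of which 57.5% were below 0. The changes were small for this table, since the median size without sign was 0.23 for the Rnf genes and 0.57 for all genes, and 38.4% of the genes of the table had a smaller change than Rnf125. Scaling the samples with the authors' own factors in place of TMM moved the median of all genes by -0.13, and the Rnf median to -0.31 beside -0.27 for all genes. Under both scalings 9 genes were below 0 and 6 of the 10 lay below the median of all genes.

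Call counts depended on the scaling. With edgeR's quasi-likelihood test at a Benjamini-Hochberg adjusted p-value under 0.05 over all genes, TMM gave 1 Rnf gene called lower (Rnf144a), where 21.3% of all genes were called lower, and 1 called higher (Rnf34), where 39.0% were called higher. The authors' factors gave 7 called lower, all but Rnf167 and Rnf187 among the genes below 0, where 47.3% of all genes were called lower, and again Rnf34 higher, where 32.2% were called higher. The table had been chosen on the same comparison, so nothing is read from these counts. No Rnf gene had groups that did not overlap, under TMM (13.9% of all genes) or the authors' factors (13.0%).

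**Figure D2:**
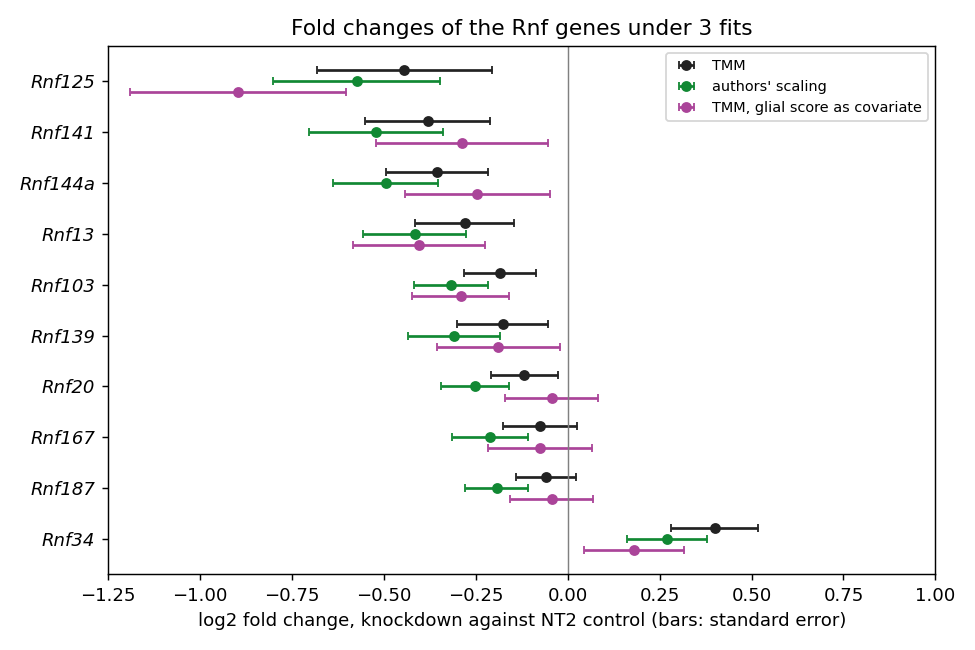
Log2 fold change of knockdown against NT2 control (x axis) for each Rnf gene (y axis), with standard errors, under TMM (black), the authors' scaling (green) and TMM with the glial score as a covariate (purple). Rnf34 lies to the right of 0 and the other 9 genes to the left of it under all 3 fits.

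Rnf34, which encodes a RING finger E3 ligase known to act on caspases, lies at chr5:123273780-123318954 on the plus strand (mm9, ENSMUSG00000029474). The NT2 control samples 3, 5, 7, 9, 21 and 23 had 1272, 943, 894, 850.5, 927 and 1168 normalized counts. The knockdown samples 4, 6, 8, 10 and 22 had 1440.5, 1309.6, 1326, 1186 and 1391. Of the 5 knockdown samples, 4 were above the highest control sample, replicate 3, and replicate 10 lay within the control range (3 of 5 were above it under the authors' factors). The means were 1009 ± 169.6 (SD, n = 6) and 1331 ± 96.4 (SD, n = 5), or 132% of control, with a log2 fold change of 0.40 (SE 0.12) by TMM and 0.27 (SE 0.11) by the authors' factors. Leaving out each sample in turn kept the log2 fold change between 0.37 and 0.48. With the glial score as a covariate it was 0.18 (SE 0.14) and was no longer called. Over all genes those called higher fell from 689 to 74 in that fit. Its counts were fractional in all samples, and Rnf34 overlaps Kdm2b on the opposite strand.

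Scaling cancels when Rnf34 is divided by the other Rnf genes of the same sample. The log2 count of Rnf34 minus the mean log2 count of the other 9 genes was -0.23, -0.53, -0.76, -0.65, -0.63 and -0.30 in NT2 control samples 3, 5, 7, 9, 21 and 23. It was 0.15, 0.12, 0.14, -0.07 and 0.29 in knockdown samples 4, 6, 8, 10 and 22. The groups did not overlap, with means of -0.52 ± 0.21 (SD, n = 6) and 0.12 ± 0.13 (SD, n = 5), a difference of 0.64. Rnf34 had been singled out as the gene above the control level, and the other 9 genes all lay below it. All had entered the table by this same comparison, so the choice of genes itself favours groups that do not overlap in this ratio. The difference was not tested.

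**Figure D3:**
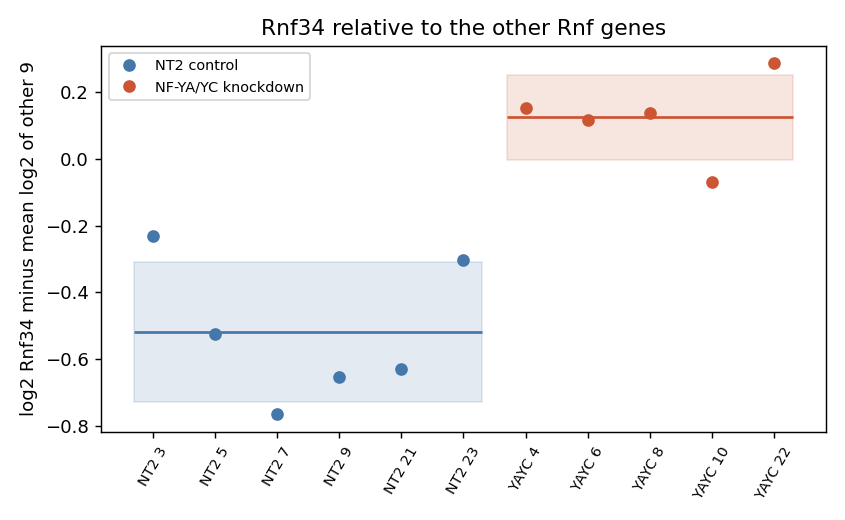
Log2 count of Rnf34 minus the mean log2 count of the other 9 Rnf genes (y axis) in each sample (x axis), with group means (lines) and SD (shading). The NT2 control samples lie between -0.76 and -0.23 and the knockdown samples between -0.07 and 0.29.

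Rnf125 encodes an E3 ligase that ubiquitinates the viral RNA sensors RIG-I (Ddx58) and MDA5 (Ifih1) and thereby limits antiviral signalling. It lies at chr18:21103126-21142349 on the plus strand (mm9, ENSMUSG00000033107) and had the lowest raw counts of the 10 genes, from 91 to 286. The NT2 control samples, in the order above, had 232, 173, 159, 231, 138 and 153 normalized counts, and the knockdown samples had 174, 148, 118, 152 and 74.1. Knockdown replicates 8 and 22 lay below every control sample, and the other 3 lay within the control range. Control samples 21 and 23 were both below the other 4 control samples, with a mean of 146 beside 199. The means were 181 ± 40.8 (SD, n = 6) and 133 ± 38.6 (SD, n = 5), or 73.5% of control, the lowest share among the 10 genes, with a log2 fold change of -0.44 (SE 0.24). The authors' factors gave -0.57 (SE 0.23), the number series as a covariate -0.56, at which it was called as by the authors' factors, and the glial score as a covariate -0.90 (SE 0.29). Without knockdown replicate 22, the lowest sample, it was -0.29.

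The genes of the sensor proteins that Rnf125 acts on had higher means under knockdown in the same samples. The mean of Rnf125 was lower, and Rnf125 was not called under TMM. Ddx58 had 1213 ± 421 (SD, n = 6) normalized counts in the NT2 control against 2649 ± 281 (SD, n = 5) under knockdown, which is a log2 fold change of 1.13 (SE 0.21). Ifih1 had 1578 ± 1066 and 2898 ± 415 normalized counts, and its log2 fold change was 0.88 (SE 0.37), which was not called by edgeR at an adjusted p-value under 0.05 and was called by DESeq2. The highest Ifih1 sample was a control sample, at 3449 beside 3292 for the highest knockdown sample. For Ddx58 the highest sample was a knockdown sample, at 2982. Both genes belong to the interferon response list described below.

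Rnf144a encodes a ligase of the RING-between-RING type, in which the ubiquitin passes through the ligase itself. It lies at chr12:26991663-27100121 on the minus strand (mm9, ENSMUSG00000020642). Normalized counts of 811, 991, 911, 840.1, 919 and 718 were found in the control samples, and of 623, 761, 696, 821 and 481 in the knockdown samples. Replicates 4, 8 and 22 of the knockdown lay below every control sample, with replicate 22 the lowest, while replicates 6 and 10 were inside the control range. The means were 865 ± 96.2 (SD, n = 6) and 677 ± 132 (SD, n = 5), with log2 fold changes of -0.35 (SE 0.14) by TMM and -0.49 (SE 0.14) by the authors' factors. Its TMM call was lost without NT2 control replicate 5, 7, 9 or 21 and without knockdown replicate 4, 6, 8 or 22, and the log2 fold change without knockdown replicate 22 was -0.25. With the glial score as a covariate it was -0.25 (SE 0.20). An antisense gene, 4930549C15Rik, overlaps Rnf144a. The counts of Rnf144a were whole in all 11 samples, and whether reads of the overlapping gene were among them was not tested.

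Rnf141 lies at chr7:117960049-117987895 on the minus strand (mm9, ENSMUSG00000030788). The NT2 control samples had 522, 380.0, 633, 453, 732 and 644 normalized counts, and the knockdown samples had 469.8, 393, 352, 451 and 488. Knockdown replicate 8 lay below the lowest control sample, replicate 5, and the other 4 lay within the control range. The means were 561 ± 132 (SD, n = 6) and 431 ± 56.5 (SD, n = 5), with log2 fold changes of -0.38 (SE 0.17) by TMM and -0.52 (SE 0.18) by the authors' factors. It missed the call at an adjusted p-value under 0.05 by TMM. It was called when control replicate 5 was left out, at -0.47, and over all samples at an unadjusted edgeR p-value under 0.05 with a fold above 1.2. Within the samples numbered 3 to 10 the log2 fold change was -0.25, and the control samples 21 and 23 were both above the other 4 control samples, with a mean of 688 beside 497. Rnf141 overlaps Ampd3 on the opposite strand.

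Rnf13 and Rnf167 encode related ligases that span the membranes of endosomes and lysosomes, with a protease-associated domain inside the compartment and the RING finger in the cytosol. Rnf13 lies at chr3:57539988-57639155 on the plus strand (mm9, ENSMUSG00000036503). Normalized counts of 15842, 11879, 17859, 10897, 14345 and 14656 were found in the control samples, and of 13491, 11523, 12086, 10954 and 10600.3 in the knockdown samples. Knockdown replicate 22 alone lay below the lowest control sample, and control replicates 5 and 9 stood among the knockdown samples. The means were 14246 ± 2554 (SD, n = 6) and 11731 ± 1134 (SD, n = 5), with log2 fold changes of -0.28 (SE 0.14) by TMM and -0.42 (SE 0.14) by the authors' factors. It missed the call by TMM over all samples and was called without control replicate 9, at -0.33.

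Rnf167 lies at chr11:70461091-70464916 on the plus strand (mm9, ENSMUSG00000040746) and overlaps Slc25a11 on the opposite strand. The NT2 control samples had 1579, 1523, 1536, 1498, 1777 and 1911 normalized counts, and the knockdown samples had 1613, 1369, 1762, 1579 and 1449. The control samples 21 and 23 were the highest of all, and among the samples numbered 3 to 10 the knockdown mean of 1581 was above the control mean of 1534, with a log2 fold change of 0.04. Over all samples it was -0.08 (SE 0.10) by TMM and -0.21 (SE 0.10) by the authors' factors, and its direction by TMM rested on the samples numbered 21 to 23. Without control replicate 23 or knockdown replicate 6 it was -0.03, and without knockdown replicate 8 it was -0.12. Rnf13 and its relative Rnf167 thus lay at different places in the order of fold changes, and the difference between them was not tested.

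Rnf103 and Rnf139 encode ligases of the endoplasmic reticulum membrane that act in the degradation of proteins from that compartment. Rnf103 lies at chr6:71443888-71460875 on the plus strand (mm9, ENSMUSG00000052656). Normalized counts of 1655, 1440.3, 1805, 1357, 1453 and 1683 were found in the control samples, and of 1507, 1407, 1349, 1239 and 1395 in the knockdown samples. Knockdown replicates 8 and 10 lay below all control samples. The log2 fold changes were -0.18 (SE 0.10) by TMM and -0.32 (SE 0.10) by the authors' factors, and its counts were whole in all 11 samples.

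Rnf139 lies at chr15:58720784-58733945 on the plus strand (mm9, ENSMUSG00000037075). The NT2 control samples had 1643, 1232, 1431, 1191, 1444 and 1363 normalized counts, and the knockdown samples had 1142, 1139, 1224, 1040.3 and 1575. Knockdown replicates 4, 6 and 10 lay below every control sample, and replicate 22 was the second highest of all 11 samples. The log2 fold change was -0.18 (SE 0.12) by TMM and -0.31 (SE 0.12) by the authors' factors, and -0.28 without knockdown replicate 22. Its counts were fractional in all samples, and Tatdn1 on the opposite strand and Gm49356 on the same strand overlap it.

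Rnf20 and Rnf187 act in the nucleus. Rnf20, which monoubiquitinates histone H2B together with Rnf40, lies at chr4:49644932-49669758 on the plus strand (mm9, ENSMUSG00000028309). Normalized counts of 1317, 1719, 1461, 1488, 1307 and 1521 were found in the control samples, and of 1264, 1334, 1367, 1415 and 1388 in the knockdown samples. Knockdown replicate 4 was the lowest sample and the other 4 lay within the control range. The log2 fold changes were -0.12 (SE 0.09) by TMM, -0.25 (SE 0.09) by the authors' factors and -0.04 (SE 0.13) with the glial score, and -0.07 by TMM without control replicate 5.

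Rnf187 lies at chr11:58745790-58752408 on the minus strand (mm9, ENSMUSG00000020496). Control samples had 4126, 4364, 4517, 3969, 3949.8 and 3903 normalized counts, and the knockdown samples had 4297, 3672, 3889, 3989 and 4032. Knockdown replicates 6 and 8 lay below the control samples, and replicate 4 lay above 4 of them. The log2 fold change of -0.06 (SE 0.08) by TMM was the smallest of the 10 genes, and the authors' factors gave -0.19 (SE 0.09). By TMM it was -0.03 without control replicate 7 or knockdown replicate 6 and -0.09 without knockdown replicate 4.

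**Figure D4:**
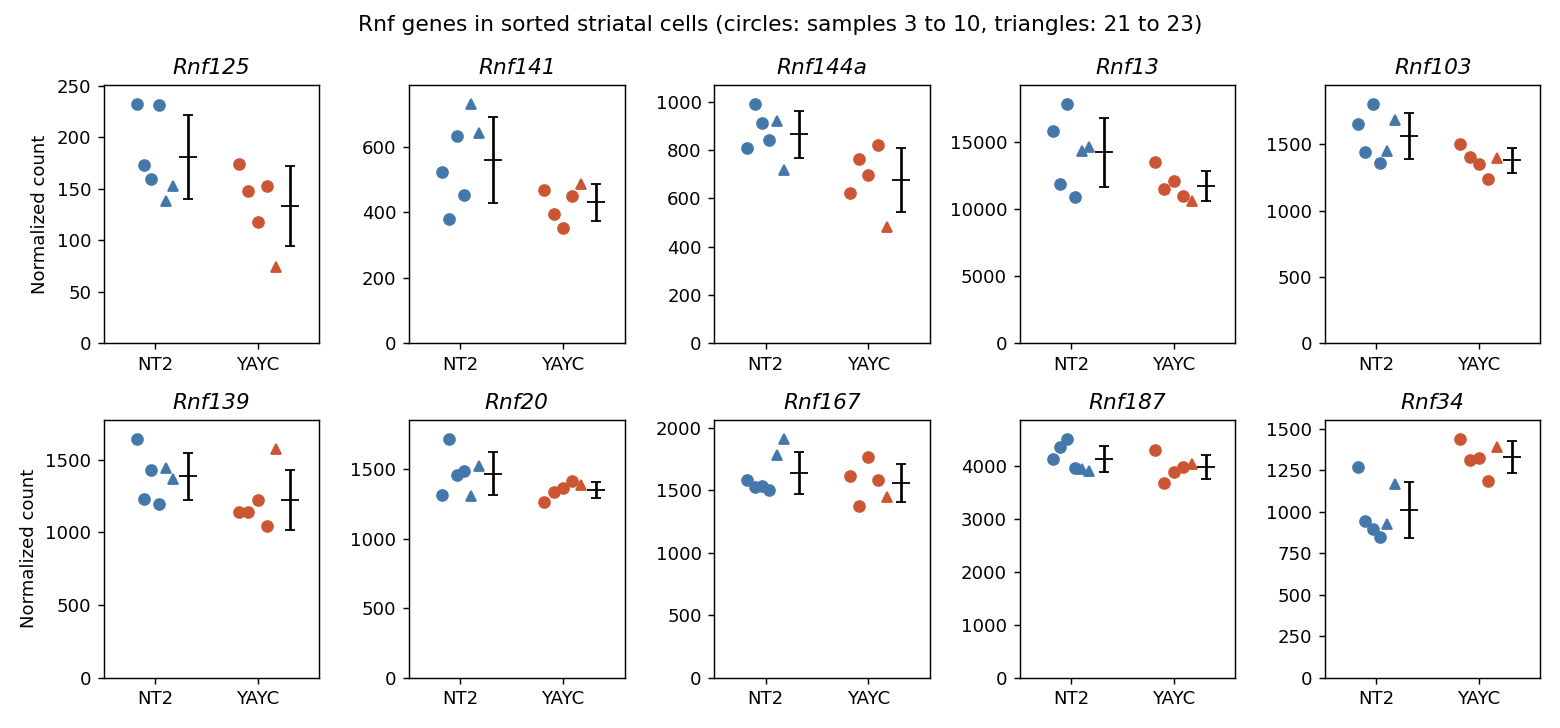
Normalized count (y axis, from 0) of each Rnf gene in NT2 control (blue) and NF-YA/YC knockdown (YAYC, red) samples, with mean and SD (black). Circles are samples numbered 3 to 10 and triangles are samples 21 to 23, and the groups overlap for every gene, Rnf34 overlapping through knockdown replicate 10 alone.

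Among the samples of each group the Rnf genes did not move as a set. With group means removed, 25 of the 45 pairs of Rnf genes had a correlation above 0 over the 11 samples, with a median r of 0.03 and a range from -0.68 to 0.86. The highest pair was Rnf13 with Rnf103, at 0.86 by TMM and 0.87 by the authors' factors. These values share libraries and scaling and are descriptions. Among all genes of the table with a mean of at least 50 normalized counts, those nearest to Rnf13 were Reep3 (r of 0.89) and Endod1 (0.87), and those nearest to Rnf103 were Sulf2 (0.89) and Rnf13 itself.

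Rnf34 was nearest to Slfn8 and Lgals9, both with an r of 0.92, and by the authors' factors to Sp100 and Slfn8, again at 0.92. Rnf125 was nearest to Zfp959 (0.91) and Mrps17 (0.85), Rnf141 to Col6a1 (0.92) and Paqr4 (0.90), and Rnf144a to Slc25a18 (0.80) and Dnaic2 (0.76). Rnf139 was nearest to Eprs (0.80) and Scmh1 (0.78), and Rnf20 to Sgsm1 (0.86) and Gm14325 (0.85). Rnf167 was nearest to Eif4ebp3 (0.89) and Fryl (0.84), and Rnf187 to Prkar1b (0.85) and Abtb1 (0.79). The authors' factors kept the nearest gene of Rnf125, Rnf144a, Rnf13, Rnf139, Rnf20 and Rnf167, and gave another nearest gene for Rnf141, Rnf103, Rnf187 and Rnf34. Each nearest gene was picked as the highest of many correlations over only 11 samples, and such a search yields high values by itself. None of these relations was tested, and shared regulation cannot be read from them.

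Of the 15 genes on the interferon response list, 14 were in the table, and these had higher means in the knockdown samples. Of these 14, 13 were called higher under both scalings, where 39.0% and 32.2% of all genes were called higher, with a median log2 fold change of 1.15. The list was chosen with earlier results known, and its genes entered the table by this same comparison. Their calls therefore describe the table and are not a test. The mean log2 value of the 14 genes, each centred on its mean over samples (the interferon score), had a mean of -0.65 ± 0.87 (SD, n = 6) for NT2 control and of 0.78 ± 0.35 (SD, n = 5) for knockdown samples. NT2 control replicate 3 had a score of 0.52, inside the knockdown range of 0.17 to 0.999, and was also the control sample with the highest Rnf34.

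Within groups, with group means removed, samples with a higher interferon score had more Rnf34. Pearson's r was 0.81 (p = 0.015, exact two-sided permutation within groups, n = 11) and Spearman's rho was 0.75 (p = 0.026, exact permutation). Control replicates 3 and 7 had the most extreme scores, and without them r was 0.68. Over the 20 relations of 10 genes with 2 scores, the adjusted p-values of 0.23 for r and 0.32 for rho did not pass 0.05. Rnf144a went in the opposite direction, with r of -0.50 (p = 0.048, adjusted p = 0.26, exact permutation) and rho of -0.61 (p = 0.032, adjusted p = 0.32), and r of -0.63 without the same samples. Rnf125, whose protein restrains the sensors, had an r of 0.06 (p = 0.85, exact permutation), which changed widely with the samples and scaling. It was -0.028 by the authors' factors, -0.36 without control replicates 3 and 7, and 0.62 (adjusted p = 0.44, exact permutation) in the samples numbered 3 to 10.

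Cells other than neurons can carry the vector, so markers of such cells were counted. The table held 5 of 11 astrocyte markers, 1 of 12 oligodendrocyte markers (Ugt8a), 1 of 11 microglia markers (P2ry12) and 7 of 9 vascular markers, and all 14 of these had a log2 fold change below 0. Of them 5 astrocyte markers, Ugt8a and 4 vascular markers were called lower under TMM, where 21.3% of all genes were called lower, and all 14 by the authors' factors, where 47.3% were. It held 0 of 8 general neuron markers and 0 of 13 markers of striatal projection neurons, so the neuronal identity of the sorted cells could not be checked in it. Fewer glial cells and less RNA of these genes per cell cannot be told apart in such samples. The glial score, from the 7 astrocyte, oligodendrocyte and microglia markers, averaged 0.41 ± 0.60 (SD, n = 6) over the control samples, with a range from -0.51 to 1.15, and -0.49 ± 0.36 (SD, n = 5) over the knockdown samples, with a range from -0.95 to -0.07. Its part in the differences of the Rnf genes was not tested. With the score as a covariate the calls of Rnf34 and Rnf144a were lost. Over all genes that fit took those called lower from 377 to 16 and those called higher from 689 to 74. The 7 markers entered the table by the same comparison and were all lower under knockdown, so the score partly stands for the group. The lost calls are therefore not particular to these genes.

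Within groups Rnf125 was lower in samples with a higher glial score, with r of -0.64 (p = 0.023, adjusted p = 0.23, exact two-sided permutation within groups, n = 11) and rho of -0.63 (p = 0.053, adjusted p = 0.35). Without control replicates 3 and 21, r was -0.54. Rnf34 had an r of -0.69 (p = 0.051, adjusted p = 0.26, exact permutation) and a rho of -0.57 (p = 0.11, adjusted p = 0.40). Control replicate 3 had both the lowest glial score (-0.51) and the highest interferon score (0.52) of the control samples. The relations of Rnf34 to the glial and interferon scores are therefore not independent of each other. The other 8 genes had r from -0.45 for Rnf103 to 0.34 for Rnf20 over all samples by TMM. Rnf20 had an r of 0.59 by the authors' factors, and within the samples numbered 3 to 10 Rnf20 had 0.90 and Rnf144a 0.74 (adjusted p = 0.26 for each, exact permutation). None of the 20 relations passed an adjusted p-value of 0.05 in this exact permutation test, and 3 had an unadjusted p-value under 0.05 for r.

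**Figure D5:**
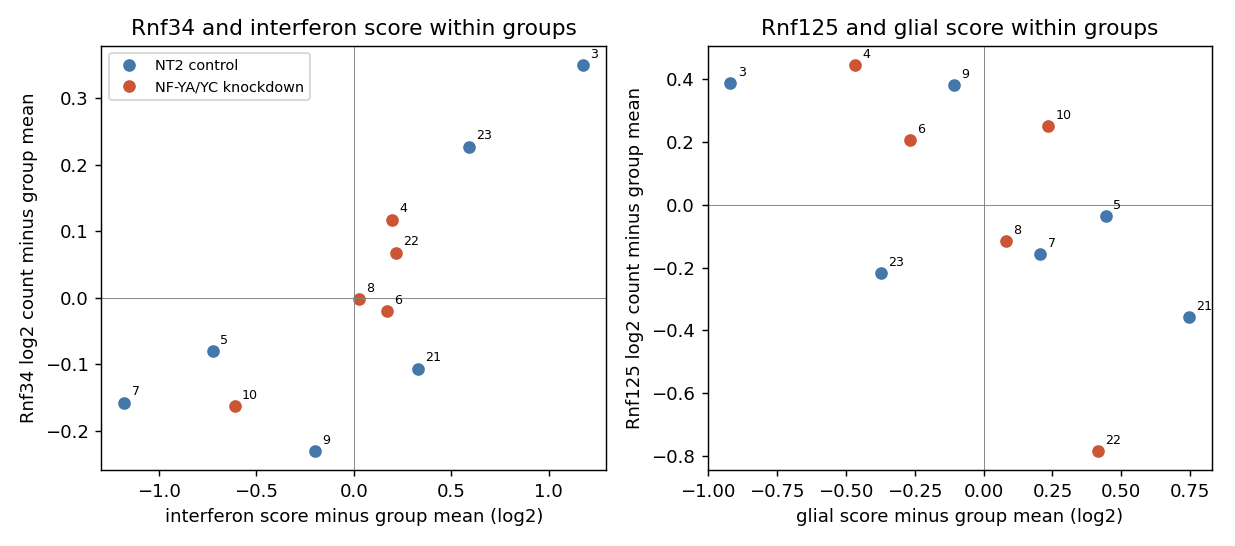
Log2 normalized count of Rnf34 against the interferon score (left) and of Rnf125 against the glial score (right), each minus its group mean, with sample numbers beside the points (NT2 control blue, knockdown red). Rnf34 is high where the interferon score is high (r of 0.81) and Rnf125 is low where the glial score is high (r of -0.64).

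Other genes of the ubiquitin pathway give the setting of the Rnf genes. Of 15 other RING ligases in the table, 7 were called higher and 0 lower by edgeR under TMM, against 39.0% and 21.3% of all genes (3 lower at an unadjusted p-value under 0.05, and 2 lower by DESeq2), and the authors' factors gave 7 higher and 7 lower. The 4 with the smallest p-values were Trim30b (log2 fold change of 1.05), March4 (0.84), Trim25 (0.81), whose product activates RIG-I, and Trim30d (0.76). The list is broad, and no difference between it and the Rnf genes was tested.

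Of the 13 deubiquitinating enzymes, which remove ubiquitin, 5 were called higher and 1 lower under TMM, and 2 higher and 6 lower by the authors' factors. These counts stand beside 39.0% of all genes called higher and 21.3% lower under TMM, and 32.2% and 47.3% by the authors' factors. Usp18, which removes the ubiquitin-like protein Isg15, had a log2 fold change of 1.18, Uchl3 of 0.34, Usp7 of 0.31 and Usp50 of 2.03. Of 20 cullin ligase subunits, 6 were called higher and 4 lower under TMM and 5 and 12 by the authors' factors, beside the same shares of all genes. Among them were Fbxl5 (-0.46), Klhl4 (-0.57) and Socs3 (0.51), with Kctd16 at 0.288 normalized counts in the control mean and 7.15 in the knockdown mean. Of the 4 HECT and U-box ligases 0 were called by edgeR under TMM (0 at an unadjusted p-value under 0.05 and 0 by DESeq2), and 1 was called lower by the authors' factors. Isg15 itself rose by 1.12 (SE 0.40), the proteasome assembly gene Psmg1 was called higher under TMM at 0.43 (SE 0.14), and Uba6, a ubiquitin-activating enzyme, was at -0.16 (SE 0.13) and was not called.

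Of the targeted subunits the table held Nfyc alone. It had 921 ± 173 (SD, n = 6) normalized counts under control and 806 ± 146 (SD, n = 5) under knockdown conditions. Its log2 fold change was -0.19 (SE 0.15) with an edgeR adjusted p-value of 0.26, and -0.32 (SE 0.14) with an adjusted p-value of 0.053 by the authors' factors. It was -0.10 without control replicate 3, -0.10 without knockdown replicate 10 and -0.52 with the glial score as a covariate, and was called in none of these edgeR fits.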

How the data were processed

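RNA-seq data of EmGFP-positive striatal cells (6 NT2 control, 5 NF-YA/YC knockdown samples) were analysed. Samples were grouped by their labels. Estimated counts per gene, made by the authors in Strand NGS, were deposited without normalization, and 52.9% of them are whole (within 0.001). Deposited beside them were log2 values, scaled per sample and centred per gene, and the p-value of the authors' comparison, which is under 0.05 for all 1767 genes. That p-value served only to check how the table had been filtered, and their fold changes were not used. The submitters' processing notes name mm9. The annotation and the use of strand in counting are not given in the sources used here, so reads of overlapping genes on opposite strands may not be told apart.

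Estimated counts were rounded and fitted with edgeR 4.0.16 in R 4.3.3 (glmQLFit, glmQLFTest, TMM, group as the only term), with Benjamini-Hochberg adjustment over all 1767 genes. The authors' factors (0.66 to 1.27) were recovered from 1247 genes with over 50 counts in every sample. Because the genes were chosen by their difference, TMM and the dispersion trend rest on selected genes. Tested on simulated counts of this comparison, the fit found 134 of 200 genes changed 2-fold and called 4 of the unchanged. The simulation left all other genes unchanged and gave every gene the same dispersion, unlike this table. It therefore cannot show how the fit behaves on selected genes or on changes as small as those of the Rnf genes. Before log2, 0.5 was added to normalized counts for scores and correlations, and all 86400 permutations within groups were enumerated. Summed counts of the listed genes were 1581757 to 3141324 in control and 1954949 to 3010153 in knockdown samples. They are not library depths, which the files do not give. No replicates agreed within sampling noise (chi-square per degree of freedom from 21.4 to 171 over 25 pairs). Exon lengths and overlapping genes came from GENCODE M21 by Ensembl identifier, and promoters from RefSeq.

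The Rnf genes and the gene lists were chosen with earlier results of these data known. Genes are named if they are Rnf genes, Nfyc, score genes, the 2 genes nearest to an Rnf gene, or among the 4 smallest p-values of a list. Promoters are printed for the Rnf genes with the largest fold changes that have one and for 2 more that are compared with them. Alternative fits were DESeq2 1.42.0, its size factors, the authors' factors and a robust fit. Further alternatives were genes with a highest count of at least 200 and the number series or glial score as a covariate. The remaining ones were an unadjusted edgeR p-value under 0.05 with a fold above 1.2, a count of 2 added before log2, samples 3 to 10 only, and leaving out each sample.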

Additional observations from a re-analysis of the deposited data

How the results depend on the processing

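Rnf genes called lower numbered 1 by TMM and 7 by the authors' factors, 2 with the number series as a covariate, 2 at an unadjusted p-value under 0.05 with a fold above 1.2, 0 with a highest count of at least 200, 0 with the glial score as a covariate, and 0 to 1 on leaving out each sample (0 without control replicate 7 or 21 or knockdown replicate 4, 6, 8 or 22). Rnf genes called higher numbered 1, and 0 with the glial score. Of all 1767 genes, 377 were called lower by TMM, 836 by the authors' factors, 316 with the number series and 16 with the glial score. At an unadjusted edgeR p-value under 0.05 with a fold above 1.2, 457 were lower. The fit with a highest count of at least 200 left out 439 genes and called 180 of the rest lower. Leaving out any sample gave between 208 and 441, with 210 without NT2 control replicate 21 and 208 without knockdown replicate 4. The count fell below 250 also without control replicates 5 and 7 and knockdown replicates 6 and 8. Genes called higher numbered 689 by TMM, 569 by the authors' factors, 652 with the number series and 74 with the glial score. At the unadjusted p-value with a fold above 1.2 they numbered 720. The causes were not tested. No fold change of an Rnf gene changed sign when a sample was left out or under the other fits to all samples. That of Rnf167 turned to 0.04 within samples 3 to 10. With a highest count of at least 200, Rnf20, Rnf167 and Rnf187 were at -0.07, -0.03 and -0.0096. Under the other scaling, pseudocount or samples, the correlations that changed sign were Rnf125 with the interferon score (-0.028 by the authors' factors), Rnf141 with the interferon score (-0.084) and the glial score (-0.29) in samples 3 to 10, and Rnf139 with the glial score (0.14 by the authors' factors). Without the 2 samples of most extreme score, Rnf125 with the interferon score (-0.36) and Rnf141 (-0.27), Rnf139 (0.29) and Rnf167 (-0.34) with the glial score changed sign. No paired analysis was possible because the groups share no sample number and no label says that neighbouring numbers mark a pair. Rnf125 had the lowest raw counts, from 91 to 286, and the part of count depth in its spread was not tested.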
